A study of Mus musculus with 4 samples.

Results

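The pluripotency genes examined here were Pou5f1, Nanog, Sox2, Zfp42, Esrrb, Klf2, Klf4, Dppa5a, Utf1 and Fgf4. They were taken as all probes other than controls whose transcript accession maps to 1 of these symbols, which gave 10 probes, 1 for each gene, among 55681 probes on the array. The cells were mouse EB5 embryonic stem (ES) cells carrying a Hoxb6-Venus reporter, a fluorescent readout of the trunk homeobox gene Hoxb6, after 6 days of differentiation on a feeder layer of OP9 stroma. From these cultures, cells with Flk-1 (the product of Kdr, a VEGF receptor) on their surface were sorted into a Venus-negative and a Venus-positive fraction, and their total RNA was labelled with Cy3 and hybridised to 2 single-colour Agilent arrays per fraction. Both fractions thus share the ES line, the reporter, the feeder layer, the day and the selection for Flk-1. As background, EB5 cells carry a drug resistance gene inserted at a Pou5f1 allele, so that Pou5f1 is not an unmodified locus in any of the samples. The labels do not tell if replicates are separate cultures; the p-values then reflect the spread of these samples alone, and that spread may be technical.

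Pluripotency is held by a network of transcription factors that activate each other's genes and their own. Pou5f1 (Oct4), Sox2 and Nanog form its core, Esrrb, Klf2, Klf4 and Zfp42 (Rex1) belong to the naive state of ES cells, and Utf1, Dppa5a and Fgf4 are genes active in pluripotent cells. During gastrulation most of the network is shut down, while Pou5f1 and Nanog persist for a time in the epiblast and primitive streak and in germ cells. Several of these genes also act elsewhere: Klf2 and Klf4 are transcription factors of vascular endothelium, and Sox2 is a neural gene.

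All 10 genes were well above background on all 4 arrays, the dimmest being Sox2, whose lowest signal was 3.38 times the lowest signal that counted as well above background on its array. The arrays lay on 1 slide read in 1 scan, with 50.7% to 53.0% of spots well above background and 0 saturated spots. On the slide, arrays with the same replicate number shared 1 position index and arrays of the same fraction shared the other. Fraction and the second index thus cannot be told apart, and neither can replicate number and the first index. Processed signals are given below as deposited, on a linear scale with no scaling between arrays; the 75th percentile of the signal, to which the log2 values are relative, was 396 (replicate 1) and 347 (replicate 2) for Venus-negative cells and 429 and 398 for Venus-positive cells. Levels are compared only within a gene, because probes differ in brightness. Pou5f1, Nanog and Dppa5a have processed pseudogene copies in the mouse genome, and whether their probes also capture such copies was not tested. In bulk RNA, fewer cells expressing a gene and less RNA per cell cannot be told apart. Of the 6 markers of Flk-1+ mesoderm and vascular progenitors, Kdr, Etv2, Tal1, Lmo2, Fli1 and Gata2, all were well above background on all arrays. Among them 0 passed the test, against 2.83% of all genes. Their summed signal was 259 to 322 times the 75th percentile in Venus-negative and 280 to 281 times in Venus-positive cells. They did not move alike, with 2 higher (14.1% of all genes) and 1 lower (11.9% of all genes) at an unadjusted p under 0.05. Etv2, a transcription factor of early vascular and blood progenitors, had a log2 change of -1.50 ± 0.26 SE (limma adjusted p = 0.085), and Fli1, a related factor, one of 1.00 ± 0.16 (adjusted p = 0.0777). The fractions did not overlap for either, as for 61.7% of all genes. Kdr, the sorting gene, differed by 0.44 ± 0.11 SE (adjusted p = 0.138).

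Pou5f1 and Dppa5a had the largest fitted differences among the members, with 5.22-fold and 5.52-fold lower levels in Venus-positive cells. Klf2 came next, with a fitted level 1.93-fold higher. For the other 7 members the 95% interval of the log2 change included 0, and the fitted changes ran from -0.73 (Esrrb) to 0.51 (Klf4). In limma over all genes and unnamed probes, with Benjamini-Hochberg adjustment, 0 of the 10 members passed a threshold of 0.05, against 2.83% of the 13925 genes tested. At an unadjusted p under 0.05, 2 members were lower (11.9% of all genes) and 1 was higher (14.1% of all genes). The fractions did not overlap for 5 members, against 61.7% of all genes: 3 had lower values in Venus-positive cells (29.5% of all genes) and 2 had higher values (32.3%). The median log2 change of the members was -0.28, against 0.01 over all genes tested.

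**Figure D1:**
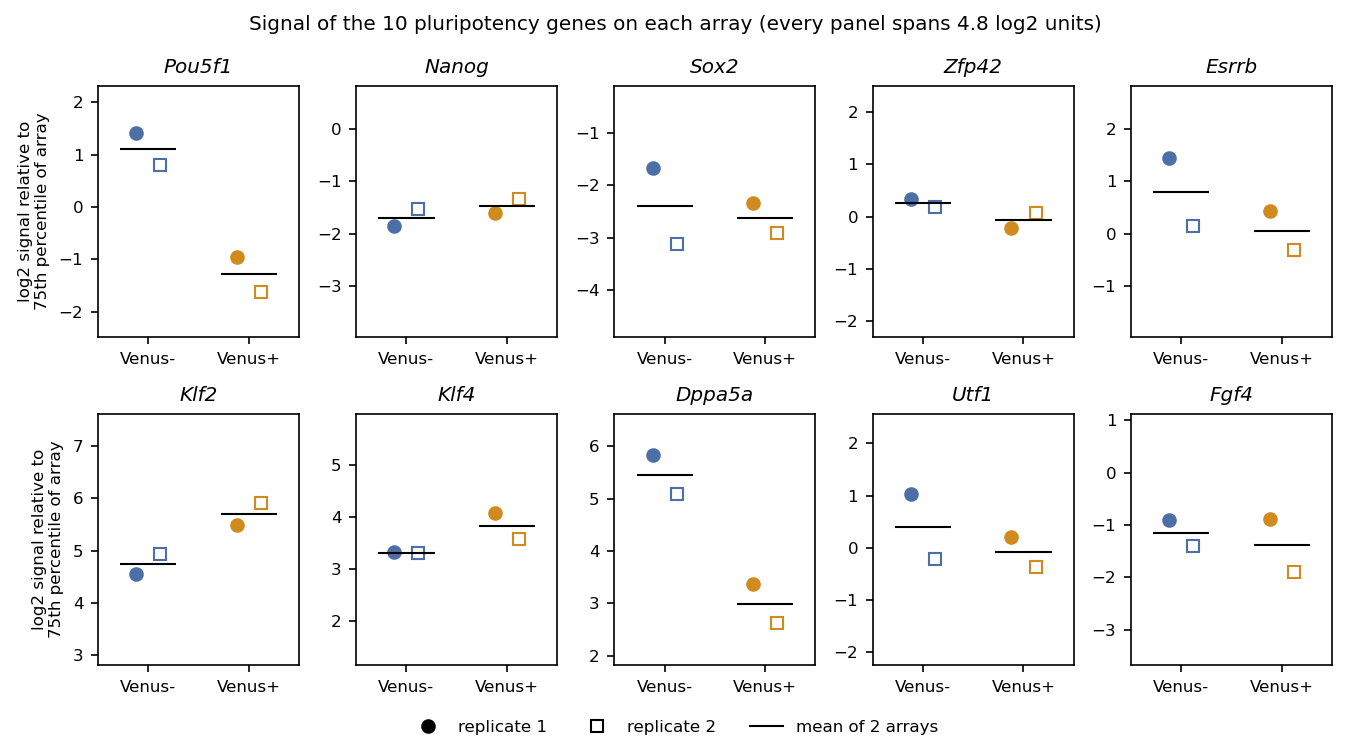
Log2 processed signal relative to the 75th percentile of the array, for each of the 10 genes, in Venus-negative (blue) and Venus-positive (orange) cells; circles are replicate 1, open squares replicate 2 and bars the mean of 2 arrays. Pou5f1 and Dppa5a lie lower on both Venus-positive arrays, Klf2 lies higher, and Sox2, Esrrb, Utf1 and Fgf4 have replicate 1 above replicate 2 in each fraction.

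Of the 10 genes, 9 had an entry in the RefSeq promoter table (build GRCm38.p6). The 250 bases before the transcription start are printed for 4 of them: Pou5f1, the regulator with the lowest Venus-positive level relative to Venus-negative; Klf2 and Klf4, whose fitted changes were positive; and Nanog, whose window holds an octamer beside a Sox site. Capitals mark matches, on either strand, to an octamer core (ATGCAAA, reverse TTTGCAT), a Sox site (ACAATG, reverse CATTGT), a KLF site (CCNCNCCC, reverse GGGNGNGG) or an Esrrb site (AAGGTCA, reverse TGACCTT); neighbouring matches may overlap and then form 1 block.
Pou5f1 promoter, chr17:35505782-35506031, plus strand: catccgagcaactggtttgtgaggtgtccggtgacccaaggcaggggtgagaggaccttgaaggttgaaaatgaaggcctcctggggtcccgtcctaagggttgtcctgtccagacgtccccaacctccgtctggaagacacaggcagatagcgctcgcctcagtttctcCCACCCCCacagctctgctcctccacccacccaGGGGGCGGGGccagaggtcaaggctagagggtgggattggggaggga
Klf2 promoter, chr8:72318812-72319061, plus strand: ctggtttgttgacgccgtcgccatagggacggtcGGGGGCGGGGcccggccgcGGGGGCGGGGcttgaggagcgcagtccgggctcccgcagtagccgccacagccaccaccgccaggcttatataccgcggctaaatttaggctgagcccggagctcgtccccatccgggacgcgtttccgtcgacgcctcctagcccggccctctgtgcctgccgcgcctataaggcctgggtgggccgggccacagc
Klf4 promoter, chr4:55532476-55532725, minus strand: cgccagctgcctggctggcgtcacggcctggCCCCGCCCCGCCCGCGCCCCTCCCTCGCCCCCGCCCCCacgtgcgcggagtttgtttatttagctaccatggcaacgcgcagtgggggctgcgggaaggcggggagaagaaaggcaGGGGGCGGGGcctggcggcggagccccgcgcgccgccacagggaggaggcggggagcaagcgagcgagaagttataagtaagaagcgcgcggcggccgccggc
Nanog promoter, chr6:122707239-122707488, plus strand: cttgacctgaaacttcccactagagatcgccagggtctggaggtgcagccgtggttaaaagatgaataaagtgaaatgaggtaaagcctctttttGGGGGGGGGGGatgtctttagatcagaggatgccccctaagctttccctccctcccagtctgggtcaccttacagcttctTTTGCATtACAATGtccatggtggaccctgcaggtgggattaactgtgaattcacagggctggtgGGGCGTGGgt

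In these windows Pou5f1, Klf2 and Klf4 showed matches to the KLF site alone. The Nanog window held the octamer core and the Sox site separated by a single base. Over the 9 genes, counting every start site listed, the octamer core was found for 3 (Nanog, Sox2 and Zfp42), the Sox site for 2 (Pou5f1, at its other listed start site, and Nanog), the KLF site for 9 and the Esrrb site for 0. Among 32851 windows of the same length, 4.12% held the octamer core, 10.7% the Sox site, 45.9% the KLF site and 4.08% the Esrrb site. These shares count single windows, whereas the counts above are per gene, so they are not like for like. G and C made up 45.6% to 74.0% of the bases in the members' windows, against a median of 52.4% over all windows. The shares were not adjusted for this, and some KLF matches, as in Nanog, were plain runs of G. A match describes the letters in the window and not binding.

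Pou5f1 encodes the POU-domain factor Oct4, which is required to form and keep pluripotent cells. Its processed signal was 1049 and 603 on the Venus-negative arrays and 222 and 129.8 on the Venus-positive arrays, with replicate 1 given first here and for every gene below. Every Venus-negative value lay above every Venus-positive value, with a gap of 1.75 on the log2 scale between the nearest arrays. The log2 signal was 1.1 ± 0.43 for Venus-negative against -1.28 ± 0.47 for Venus-positive cells (SD, n = 2). The log2 change was -2.38 ± 0.34 SE (95% interval -3.35 to -1.42; limma adjusted p = 0.0663), which exceeded the spread of the replicates but missed the threshold; over 13 alternative settings the adjusted p ran from 0.0253 to 0.188. Arrays of the same replicate number gave -2.36 and -2.41.

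Dppa5a encodes a KH-domain RNA-binding protein of pluripotent and germ cells. The signal was 22575 and 11750.3 in Venus-negative and 4419 and 2449 in Venus-positive cells. The fractions were separated by 1.72 on the log2 scale, and within each of them replicate 1 was the higher array. The log2 signal was 5.46 ± 0.53 against 2.99 ± 0.53 (SD, n = 2), a log2 change of -2.47 ± 0.40 SE (95% interval -3.59 to -1.34; limma adjusted p = 0.0773, and 0.0288 to 0.210 over the alternative settings). Same-numbered arrays differed by -2.47 and -2.46. The profiles of Pou5f1 and Dppa5a ran in parallel across all 4 arrays: each was higher in replicate 1 than in replicate 2, by 0.61 and 0.75 in Venus-negative and by 0.67 and 0.74 in Venus-positive cells.

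To place this profile, each gene's log2 signal was centred on its own mean over the 4 arrays and compared with that of Pou5f1 among 13227 other genes well above background on every array. Dppa5a was the third most similar, with a root mean square distance of 0.070. Ahead of it were Kcnk1, a potassium channel (0.046), and Cacna1i, a calcium channel (0.063), and after it came Il11, a cytokine (0.083), and Hrk, a regulator of cell death (0.099). The log2 changes of these 5 genes were between -2.27 and -2.47, with limma adjusted p-values of 0.0542 to 0.0886. The other members lay much farther from Pou5f1, the closest being Esrrb at rank 723 (distance 0.86) and the farthest Klf2 at rank 12769 (1.75). With 4 arrays, such a ranking is a description of these samples only.

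Klf2 encodes a zinc finger factor of naive ES cells that also governs the response of endothelium to flow. Its signal was 9264 and 10587 in Venus-negative and 19156 and 23799 in Venus-positive cells. Both Venus-positive arrays lay above both Venus-negative arrays, with a gap of 0.55 (log2) between the nearest. The log2 signal was 4.74 ± 0.27 and 5.69 ± 0.30 (SD, n = 2), a log2 change of 0.95 ± 0.23 SE (95% interval 0.31 to 1.59; limma adjusted p = 0.126, and 0.0486 to 0.332 over the alternative settings). Same-numbered arrays gave 0.93 and 0.97.

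Klf4, a related zinc finger factor used in reprogramming, had signals of 3974 and 3429 in Venus-negative and 7238 and 4730.1 in Venus-positive cells. The fractions did not overlap, with a gap of 0.24, but the Venus-positive replicates were spread more widely (SD 0.36) than the Venus-negative ones (SD 0.02). The log2 change was 0.51 ± 0.21 SE (95% interval -0.08 to 1.09; limma adjusted p = 0.254), and same-numbered arrays gave 0.75 and 0.27. It was 0.25 without Venus-positive replicate 1 and 0.76 when Venus-positive replicate 2 was left out.

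Markers of endothelium had positive fitted changes, as had Klf2 and Klf4. Of Pecam1, Cdh5, Tek, Tie1, Emcn, Cldn5, Erg, Sox18, Esam and Egfl7, 10 of 10 had a positive log2 change and 3 passed the test in limma: Tek, an angiopoietin receptor (1.53 ± 0.17 SE, adjusted p = 0.0479), Sox18, a vascular transcription factor (1.53 ± 0.11, adjusted p = 0.0349), and Esam, an adhesion molecule (1.38 ± 0.10, adjusted p = 0.0349). The background was 0.984% of all genes called higher. Emcn had the smallest change of the list (0.20 ± 0.51 SE, limma adjusted p = 0.845), and its fractions overlapped. The median of the list was 1.45, and its summed signal was 186 to 235 times the 75th percentile in Venus-negative and 389 to 475 times in Venus-positive cells. All 10 markers were measured on every array. Like Klf2, 9 of the 10 had replicate 2 above replicate 1 in both fractions, against 35.7% of all genes. Klf4 had the opposite order, with replicate 1 higher by 0.02 between the Venus-negative arrays and by 0.51 between the Venus-positive arrays. The part of endothelial cells in the Klf2 and Klf4 values was not tested.

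Nanog, a homeobox gene of the core network, had low signals on every array: 109 and 121 in Venus-negative and 141 and 159 in Venus-positive cells. The values overlapped between the fractions. The log2 change was 0.23 ± 0.18 SE (95% interval -0.29 to 0.75; limma adjusted p = 0.512), so the interval excluded a fall of the size fitted for Pou5f1. Leaving out a Venus-negative array gave 0.06 (replicate 1 removed) or 0.40 (replicate 2 removed), and leaving out a Venus-positive array 0.37 or 0.09 in the same order. Zfp42, a zinc finger gene widely used as a marker of the naive state, had signals of 499.7 and 395 in Venus-negative and 372 and 422 in Venus-positive cells. On the log2 scale the fractions were separated by only 0.10, and the change was -0.32 ± 0.15 SE (95% interval -0.75 to 0.10; limma adjusted p = 0.297), or -0.18 without Venus-positive replicate 1.

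**Figure D2:**
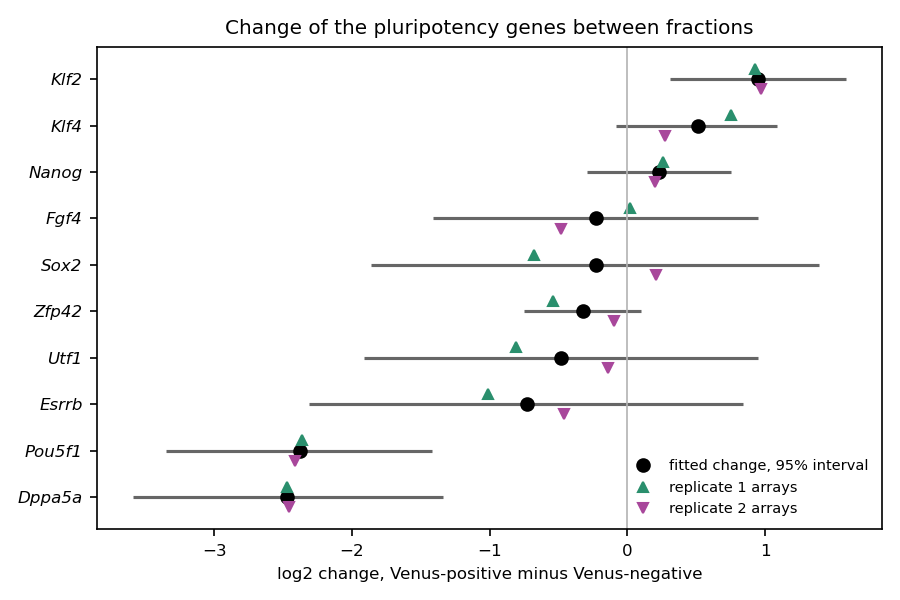
Log2 change of each gene, Venus-positive minus Venus-negative, with the fitted value and its 95% interval (black) and the difference between the arrays of replicate 1 (upward triangles) and of replicate 2 (downward triangles). The intervals of Dppa5a, Pou5f1 and Klf2 exclude 0 before adjustment for multiple testing; none of the 10 genes passed after adjustment.

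The remaining 4 members, like Nanog, differed more between the replicates of each fraction than between the fraction means. Sox2, which encodes the partner of Oct4 on composite DNA sites, had signals of 125 and 40.3 in Venus-negative and 85.2 and 53.4 in Venus-positive cells. Its values were highest and lowest within the Venus-negative fraction, which enclosed both Venus-positive values. The log2 change was -0.23 ± 0.57 SE (95% interval -1.86 to 1.39; limma adjusted p = 0.839), and it turned to 0.49 without Venus-negative replicate 1 and to 0.05 when Venus-positive replicate 2 was left out.

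Esrrb, an orphan nuclear receptor of the naive network, had signals of 1075 and 381 in Venus-negative and 579.6 and 319 in Venus-positive cells. Replicate 1 was 2.47-fold above replicate 2 in the Venus-negative and 1.69-fold above it in the Venus-positive fraction. The log2 change of -0.73 ± 0.56 SE (95% interval -2.31 to 0.84; limma adjusted p = 0.490) became -0.08 without Venus-negative replicate 1 and -1.38 without Venus-negative replicate 2. For the Venus-positive arrays the values were -1.11 with replicate 1 removed and -0.36 with replicate 2 removed.

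Utf1, which encodes a chromatin-associated protein of undifferentiated cells, had signals of 803 and 298 in Venus-negative and 496 and 310.0 in Venus-positive cells. Only Venus-negative replicate 1 stood clearly above the other arrays. Its log2 change was -0.48 ± 0.50 SE (95% interval -1.91 to 0.95; limma adjusted p = 0.620), or 0.14 without Venus-negative replicate 1. Fgf4, the growth factor through which ES cells prime themselves for differentiation, had signals of 209.9 and 131 in Venus-negative and 232 and 107 in Venus-positive cells. Both replicate 1 arrays were nearly equal and lay above both replicate 2 arrays. Its log2 change was -0.23 ± 0.42 SE (95% interval -1.41 to 0.95; limma adjusted p = 0.780), turning to 0.02 without Venus-negative replicate 1 and to 0.27 when Venus-positive replicate 2 was left out.

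The replicate difference, which cannot be told apart from a difference in slide position, ran across most of the group. Replicate 1 was above replicate 2 in both fractions for 7 of the 10 members, against 34.5% of all genes tested, and the difference exceeded 0.5 on the log2 scale in both fractions for 5 of them (Pou5f1, Sox2, Esrrb, Dppa5a and Utf1), against 2.89% of all genes; that size was chosen after the values were seen. The largest was that of Sox2 in Venus-negative cells, at 1.45, or 2.73-fold. The converse order, replicate 2 above replicate 1 in both fractions, was found for Nanog and Klf2. Over the 10 members, the root mean square log2 difference between replicates was 0.82 among Venus-negative and 0.62 among Venus-positive arrays, where all genes gave 0.43 and 0.40. Between fractions it was largest for Venus-negative replicate 1 against Venus-positive replicate 2 (1.71) and smallest for Venus-negative replicate 2 against Venus-positive replicate 1 (0.91).

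**Figure D3:**
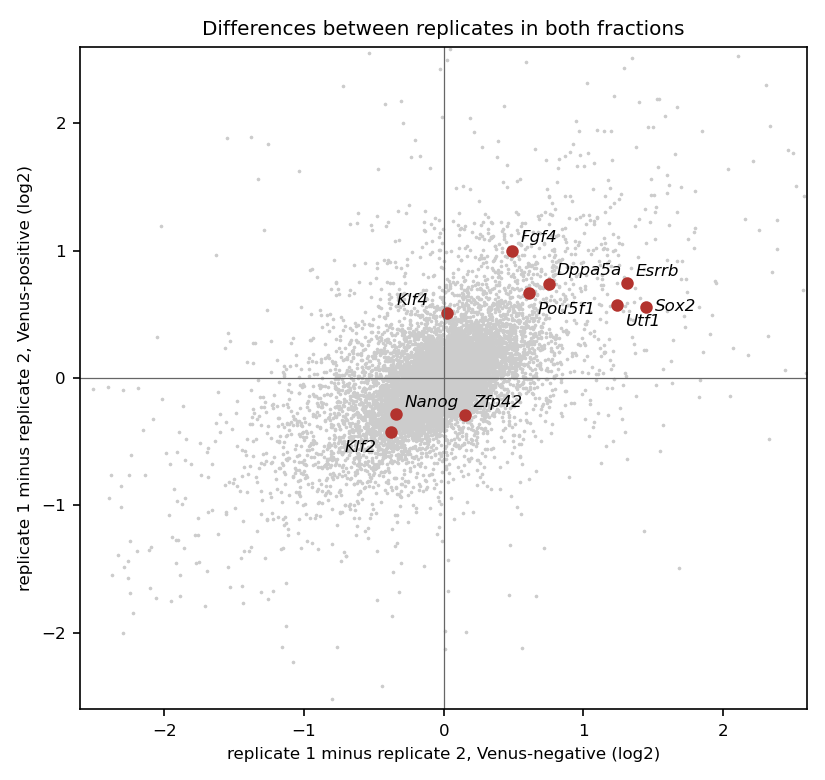
Log2 difference between replicate 1 and replicate 2 in Venus-negative (x axis) and Venus-positive cells (y axis); grey points are the genes tested, of which 37 lie beyond the axes, and red points the 10 pluripotency genes. Esrrb, Sox2, Utf1, Dppa5a, Pou5f1 and Fgf4 lie to the upper right, with replicate 1 higher in both fractions, and Nanog and Klf2 to the lower left.

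Other genes of the pluripotency network showed both patterns in part on the same arrays. They were listed with earlier results of these data known. Of 23 such genes, 22 were tested and Sox15 was not well above background; 2 were lower past the threshold in limma (1.85% of all genes were called lower), 0 were higher, and the median log2 change was -0.29. Tdgf1, the Nodal co-receptor Cripto, had the largest change, at -4.89 ± 0.14 SE (adjusted p = 0.0246). Its log2 signal was 1.27 and 1.05 for Venus-negative against -3.83 and -3.62 for Venus-positive cells, with replicates close together. The gene's other probes disagreed, at -4.67 ± 0.22 and -0.83 ± 0.38 SE in a limma fit over all probes (adjusted p = 0.0304 and 0.289). L1td1, an RNA-binding protein of ES cells (-1.20 ± 0.46, adjusted p = 0.239), and Dppa4, a chromatin protein (1.11 ± 0.36, adjusted p = 0.191), followed by size among those measured on all arrays and did not pass.

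In this list, replicate 1 exceeded replicate 2 by more than 0.5 in both fractions for 7 of 22 genes, against 2.89% of all genes. They were Tfcp2l1, Klf5, Nr0b1, Dppa3, Fbxo15, Gdf3 and L1td1. That size was chosen after the values of the members were seen. Klf5 and L1td1 had positive log2 signals on every array, and the other genes named had negative ones. The share of all genes was not adjusted for signal. Gdf3, a TGF-beta family ligand of ES cells, illustrates the pattern with a log2 signal of -0.61 and -2.20 in Venus-negative and -1.19 and -2.12 in Venus-positive cells. Its change between fractions was -0.25 ± 0.68 SE (limma adjusted p = 0.857). Tfcp2l1, a naive-state factor, had replicate differences of 1.17 and 0.90. Nr0b1 and Dppa3 passed the background criterion on just 1 Venus-negative array. Of the receptor and signal chain of LIF, the cytokine that maintains ES cells, Lifr, a receptor subunit, had a fitted level 1.89-fold lower in Venus-positive cells, about the size of the Klf2 difference (-0.92 ± 0.15 SE, limma adjusted p = 0.0774), and its fractions did not overlap (61.7% of all genes). The others differed less: Il6st 0.20 ± 0.13 (0.421), Stat3 0.31 ± 0.10 (0.184) and Socs3 0.04 ± 0.12 (0.857).

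Genes of the primed epiblast, the later pluripotent state from which the streak arises, had a negative log2 change for 6 of 7 tested, with Foxd3 not well above background. The median was -0.68, and 2 of the 7 fell past the threshold in limma, against 1.85% of all genes called lower. These were Nodal, the signalling ligand (-3.59 ± 0.32 SE, limma adjusted p = 0.0395), and Fgf5 (limma adjusted p = 0.0342 for its fitted change). Fgf5 was well above background on neither Venus-positive array. Its bound there was 14.0-fold lower, taken against the lowest signal of any spot well above background on those arrays. Otx2, a homeobox gene of the epiblast and anterior embryo, stood at 2.33 and 1.68 in Venus-negative and -0.95 and -1.85 in Venus-positive cells, a change of -3.41 ± 0.41 SE that missed the threshold (adjusted p = 0.0551). Dnmt3b, a DNA methyltransferase, had a log2 change of -0.68 ± 0.10 SE (adjusted p = 0.0687).

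Most markers of nascent mesoderm were lower in Venus-positive cells, the direction of the Pou5f1 and Dppa5a values. Of T, Mixl1, Eomes, Mesp1, Gsc, Tbx6 and Msgn1, 7 of 7 had a negative log2 change and 5 passed the test in limma, against 1.85% of all genes called lower. T, the streak factor Brachyury (-0.73 ± 0.25 SE, adjusted p = 0.202), and Tbx6 (-2.92 ± 0.43, adjusted p = 0.0687) did not pass. Their summed signal was 45.0 to 53.0 times the 75th percentile in Venus-negative and 11.1 to 16.0 times in Venus-positive cells, and Mesp1 passed the background criterion on just 1 Venus-positive array. Replicate 1 was above replicate 2 in both fractions for 4 of the 7 markers, as for Pou5f1 and Dppa5a, against 34.5% of all genes. Unlike for Pou5f1 and Dppa5a, the difference exceeded 0.5 in both fractions for 0 of the 7 (2.89% of all genes). Mesp1 had the converse order, with differences of -0.68 among Venus-negative and -0.74 among Venus-positive arrays. The part of nascent mesoderm cells in the Pou5f1 and Dppa5a values was not tested.

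**Figure D4:**
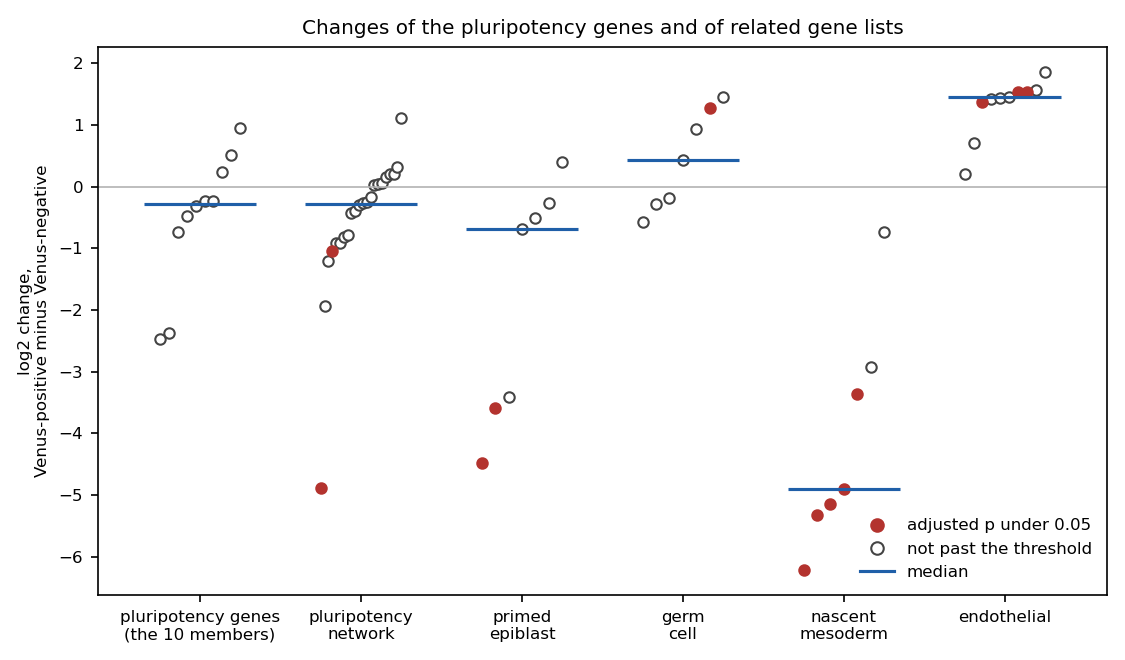
Fitted log2 change, Venus-positive minus Venus-negative, of the 10 pluripotency genes and of the tested members of 5 further lists; red points had an adjusted p under 0.05 in limma and blue bars are medians. The members run from -2.47 (Dppa5a) to 0.95 (Klf2); nascent mesoderm genes lie below 0 and endothelial genes above it, and for genes dim on a Venus-positive array (Fgf5 on both, Mesp1 and Prdm14 on 1) the fitted value is not a bound.

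Germ cell genes, which share several members' expression, were all 7 tested. Kit, a receptor also present on blood and vascular progenitors, was higher past the threshold in limma (1.27 ± 0.11 SE, adjusted p = 0.0395), against 0.984% of all genes called higher. The median of the list was 0.43. Prdm1, a repressor needed for germ cell formation (1.45 ± 0.26, adjusted p = 0.0892), and Dnd1, an RNA-binding protein of germ cells (-0.57 ± 0.22, adjusted p = 0.235), did not pass. Their summed signal was 10.4 to 11.2 times the 75th percentile in Venus-negative and 18.3 to 21.3 times in Venus-positive cells. Kit accounted for nearly all of that difference: without it the sum was 3.80 to 5.17 times in Venus-negative and 3.88 to 5.46 times in Venus-positive cells. Besides Dnd1, Tfap2c and Nanos3 also had negative fitted changes (-0.29 ± 0.49 and -0.19 ± 0.14 SE, adjusted p = 0.764 and 0.475).

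Of the neural genes, which bear on Sox2, 4 of 6 were tested, while Pax6 and Pou3f2 were not well above background. Tubb3, a neuronal tubulin, was lower (-2.61 ± 0.27 SE, limma adjusted p = 0.0463), against 1.85% of all genes called lower. The summed signal of the list was 6.19 to 6.55 times the 75th percentile in Venus-negative and 7.97 to 9.86 times in Venus-positive cells. Nes, the intermediate filament nestin, which is also present in other progenitors, carried the higher sum (0.89 ± 0.18 SE, limma adjusted p = 0.105). Without Nes the sum was 1.91 to 2.14 times in Venus-negative and 0.70 to 0.927 times in Venus-positive cells. That lower remainder rested on Tubb3, whose log2 signal was 0.76 and 0.59 in Venus-negative and -1.59 and -2.28 in Venus-positive cells. Sox1 and Sox3, which are close relatives of Sox2, had log2 changes of -0.21 ± 0.16 and 0.55 ± 0.19 SE (adjusted p = 0.493 and 0.207).

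Of the stromal and adipocyte genes that OP9 feeder cells could contribute, 7 were tested and Dcn was not well above background. Replicate 1 was above replicate 2 in both fractions for 6 of the 7, against 34.5% of all genes. The exception was the adipocyte gene Pparg, with differences of -0.74 among Venus-negative and -0.40 among Venus-positive arrays. Between fractions 6 of the 7 had a negative log2 change and 0 passed the test in limma, against 2.83% of all genes. At an unadjusted p under 0.05, 2 were lower (11.9% of all genes): Thy1, a surface glycoprotein (-1.60 ± 0.39 SE, adjusted p = 0.128), and Pdgfrb, a PDGF receptor (-0.90 ± 0.15, adjusted p = 0.0819). The fractions did not overlap for either, as for 61.7% of all genes. Lum, a matrix proteoglycan, differed most between replicates, by 2.11 among Venus-negative and 2.53 among Venus-positive arrays. The list's summed signal was 55.6 and 49.9 times the 75th percentile in Venus-negative and 48.2 and 35.4 times in Venus-positive cells. Blood genes ran the other way in part: 3 of 5 tested had replicate 2 above replicate 1 in both fractions (35.7% of all genes). Between fractions 0 of them passed (2.83% of all genes). Runx1, a factor of blood stem cells, was lower at an unadjusted p under 0.05 (-0.64 ± 0.17 SE, limma adjusted p = 0.145), against 11.9% of all genes. Ptprc was not well above background, and the list had a summed signal of 47.7 and 101 times the 75th percentile in Venus-negative and 42.2 and 51.3 times in Venus-positive cells. Without its brightest gene, Hbb-bh1, the sum was 18.5 and 32.4 times in Venus-negative and 17.2 and 21.9 times in Venus-positive cells. The part of feeder or blood cells in the replicate difference of the pluripotency genes was not tested.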

How the data were processed

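The scanner tables deposited by the authors give intensity per spot, extracted, per the file headers, by Agilent Feature Extraction 10.10.1.1; background was subtracted and spatial trends removed within each array. The authors also deposited processed values, which are linear intensity values: each array's processed signal multiplied by its own constant (2.15, 2.44, 1.98 and 2.11), with column medians of 41.0, 42.3, 41.0 and 38.1. How the constants were set is not given in the sources used here. Spot flags (outlier, well above background) are other scanner output, per the file headers.

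After removal of control and outlier spots, log2 signals were centred on each array's 75th percentile and spots averaged by probe. A probe entered the test if both arrays of either fraction were well above background (27899 probes), and the brightest probe stood for its gene: 13925 genes and 9622 unnamed probes. Accessions without version were named through RefSeq (GRCm38.p6; 21465 of 37881 matched). The comparison used limma 3.58.1 (R 4.3.3, data.table version 1.17.8), was tested on simulated data and had 2 residual and 1.8 prior degrees of freedom. A gene dim on both arrays of a fraction is given as a bound against the higher of its own signal and the lowest signal well above background. The 4 arrays limit the precision. Members and lists were chosen with earlier results of these data known. All members are named; of each further list, genes past the threshold and up to 3 with the largest change on all arrays could be named; others are named as parts of a list or after their values were seen, and 1 listed gene is not reported here. Alternatives were normexp (on median signals, as no mean signal column was used), other scalings, filters, variance prior, probe averaging, a replicate block and leaving out each array.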

Additional observations from a re-analysis of the deposited data

How the results depend on the processing

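The log2 changes of Pou5f1, Dppa5a, Klf2, Klf4, Nanog, Zfp42 and Esrrb kept their sign in all 13 alternatives, with ranges of -2.72 to -1.96 for Pou5f1, -2.84 to -2.09 for Dppa5a and 0.74 to 1.16 for Klf2, and adjusted p-values of 0.0253 to 0.188, 0.0288 to 0.210 and 0.0486 to 0.332. The ranges were wider for their size for Klf4 (0.25 to 0.76), Nanog (0.06 to 0.40), Zfp42 (-0.47 to -0.18) and Esrrb (-1.38 to -0.08), with both ends of each from leaving out an array. Leaving out an array gave -0.96 to 0.49 for Sox2, -1.1 to 0.14 for Utf1 and -0.73 to 0.27 for Fgf4; the sign turned without Venus-negative replicate 1 for all of them (Fgf4 0.02) and, for Sox2 (0.05) and Fgf4, when Venus-positive replicate 2 was left out. In limma, 0 members passed as reported; 2 were lower with normexp, a signal-dependent variance prior or the replicate block (Pou5f1 and Dppa5a), and 1 was higher (Klf2) with normexp or the block. The cause was not tested. Replicate numbers were used as a block although nothing in the labels pairs them; the replicate differences of the fractions had a correlation of 0.53 across 13925 genes. With the replicate block the adjusted p was 0.0429 for Pou5f1 and Dppa5a and 0.0490 for Klf2. Over the whole array 394 genes were called; normexp gave 1032, the variance prior 1247, the block 711, dim probes kept 0, and leaving out any array 0 (limma; 3519 genes at an unadjusted p under 0.05 with dim probes kept, 2217 to 2847 without an array, and 3626 as reported). Leaving out an array gives fewer samples. With arrays centred on their median, 53.3% of called genes were lower, against 65.2% as reported, and the sign of every member was kept. Sox2, Nanog and Fgf4 are the dimmest members. Precision did not follow signal alone: the SE was 0.57, 0.18 and 0.42 for these, against 0.56 for the brighter Esrrb.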

Other observations

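Reading out the replicate term of the blocked limma fit, chosen after the data were seen, gave log2 differences of replicate 1 over replicate 2 of 1.03 ± 0.18 SE for Esrrb, 1.01 ± 0.27 for Sox2, 0.91 ± 0.21 for Utf1, 0.75 ± 0.17 for Fgf4, 0.75 ± 0.08 for Dppa5a and 0.64 ± 0.08 for Pou5f1, with adjusted p-values of 0.237 to 0.284. Of all genes, 0 passed for this term in limma. At an unadjusted p under 0.05, 1034 had replicate 1 and 1381 had replicate 2 higher. The term cannot be told apart from the slide position index that the replicates share.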
